A study of Arabidopsis thaliana with 12 samples.

Results

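Abscisic acid (ABA), the plant hormone of drought and seed dormancy, turns many genes down as well as up. By group means, the 120 genes described here fell with ABA in wild-type (WT) Arabidopsis thaliana seedlings. The decrease was larger in WT than in cdk8 seedlings by at least a set limit. CDK8 is the kinase of the Mediator kinase module. Mediator is the large complex that passes signals from transcription factors to RNA polymerase II, and the kinase module docks on it reversibly and can act with or against transcription. In plants the module is known for roles in development, defence, lipid synthesis and hormone responses.

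The genes were chosen from the measured values themselves. For each gene the level was log2 of the group mean plus 1, in CPM, the count of a gene scaled to the total of its library. The ABA response in WT, called a, was the level with ABA minus the level after mock, and b was the same in cdk8. A gene was a member where a was -1.5 or lower, b - a was 1 or higher, and b was under 1.5. The rule was met by 120 of 33602 genes counted. WT seedlings had 1307 genes with a at -1.5 or lower, so that the members were 9.18% of them; 14 others of these had b - a at -1 or lower. All values of a, b, b - a and of the 4 group levels below were part of this choice and are given as a description, with no test.

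RNA of whole seedlings 1 week old was sequenced in 12 libraries, 3 in each of 4 groups: cdk8 with 50 µM ABA for 3 h, cdk8 with mock treatment, WT with the same ABA treatment, and WT with mock treatment. The labels name the mutant as cdk8 and give no allele, and they do not state whether the 3 libraries of a group came from separate plantings, so p-values measure the spread between these libraries, which may be technical. The mock columns are named 0h in the deposited table, so ABA and 3 h of time or handling cannot be told apart in a and b. Between 24292745 and 27415053 fragments per library were assigned to genes in cdk8 with ABA, and between 17675785 and 21188494 in the other groups. CDK8 itself had 10.8, 5.39 and 9.59 CPM in cdk8 with ABA, 5.24, 9.22 and 6.21 CPM in cdk8 mock, against 27.4, 28.1 and 26.1 CPM in WT with ABA and 22.2, 19.6 and 20.5 CPM in WT mock. The cdk8 and WT libraries did not overlap, and transcripts of the gene remained detectable in the mutant. Summed root markers (15 genes) lay at 181 to 288 CPM in cdk8 with ABA, 423 to 445 in cdk8 mock, 213 to 240 in WT with ABA and 360 to 418 in WT mock. Since the tissue was the whole seedling, fewer cells of a type and less RNA per cell cannot be told apart.

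A smaller decrease in cdk8 can come about in 2 ways: a lower level before ABA, or a higher level after it. The members were split by the share of b - a that the difference after mock made up. For 81 genes, called mock-side below, the larger part of b - a lay in a lower mock level in cdk8; for the other 39, called ABA-side, it lay in a higher level under ABA. The split and the roles below were assigned after the values were seen, and members named beyond the rule stated with the methods were chosen the same way. Mock-side genes had a median difference, cdk8 minus WT on the log2(CPM + 1) scale, of -1.23 after mock and 0.11 under ABA. ABA-side genes had medians of -0.31 after mock and 0.91 under ABA. Over all 21151 genes tested the medians were 0.004 after mock and 0.09 under ABA.

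**Figure D1:**
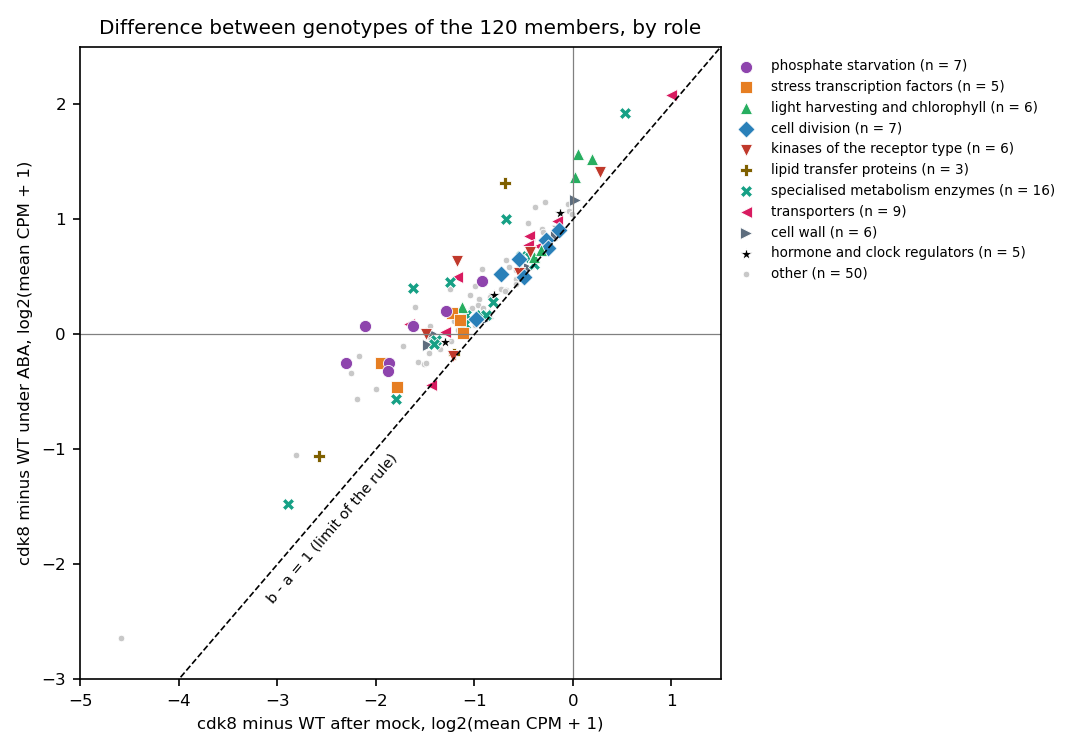
Each point is a member. The horizontal axis is the level in cdk8 minus that in WT after mock, the vertical axis the same difference under ABA, both in log2(mean CPM + 1) over 3 libraries per group, and symbols mark the role of the gene. Phosphate starvation genes and stress transcription factors lie at the left, near 0 on the vertical axis, while the LHCB genes lie near 0 on the horizontal axis and above 1 on the vertical one. The dashed line is the limit b - a = 1, so no member can lie below it.

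The 120 members had a median a of -2.41, a median b of -0.94 and a median b - a of 1.24. Over all genes tested the medians of a, b and b - a were -0.07, 0.03 and 0.10. Calls were made by edgeR's quasi-likelihood test, at a Benjamini-Hochberg adjusted p under 0.05 over all 21151 genes. It called 99 of the 119 tested members lower with ABA than after mock in cdk8. Of all genes tested, 30.4% were called so, and 30.6% higher. In WT it called 119 members lower (32.8% of all genes, and 31.9% higher). In cdk8, b was at -1 or lower for 54 members and above 0 for 2, ERF6 and PP2-A5. For the difference between the ABA responses, cdk8 minus WT, the same test called 69 members higher and none lower, where 2.37% of all genes were called higher and 2.85% lower. After mock, 80 members were called lower in cdk8 (8% of all genes) and 2 higher (5.15%), AT3G44970 and AT2G39210. Under ABA, 35 were called higher in cdk8 (10.6% of all genes) and 6 lower (13%). All 5 comparisons use values that chose the members, so these counts describe the choice and nothing is read from them. SAG12, a senescence protease, was the member that failed the filter on low counts: it had 6.51 CPM in WT mock replicate 3 and 0 in the other 2, and without that library its b - a was -0.24.

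The libraries of a group were set against each other gene by gene. All cdk8 mock libraries lay below all WT mock libraries for 91 members, of which 78 were mock-side (19.1% of all genes tested). All cdk8 ABA libraries lay above all WT ABA libraries for 48 members, of which 34 were ABA-side (26.6% of all genes tested). Both counts come from the values of the rule. The mock-side group also held every one of the 24 members with under 1 CPM on average in both ABA groups. For those the added 1 CPM bounds b, since a gene that is low in cdk8 mock has little room to fall on that scale; 4 of the 24 (AT5G35480, ORA47, ATPMEPCRD and AT1G14220) were called for the difference in the fit, which works on counts.

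Promoter sequences are shown for 3 role groups, chosen after the matches were seen. Every motif searched is given by a share below, but counts by role are given only for some roles and motifs. Sequences are RefSeq's of the TAIR10.1 assembly, whose nuclear chromosomes have the coordinates of the files' TAIR10 build, 250 bases before to 50 bases after the first base of the gene in the deposited table, 5′ to 3′ on the strand of the gene. The first 4 belong to phosphate starvation genes, and capitals mark each match to P1BS, the site of PHR1, spelled GNATATNC and the same on both strands.
SPX3, chr2:18606160-18606459, plus strand: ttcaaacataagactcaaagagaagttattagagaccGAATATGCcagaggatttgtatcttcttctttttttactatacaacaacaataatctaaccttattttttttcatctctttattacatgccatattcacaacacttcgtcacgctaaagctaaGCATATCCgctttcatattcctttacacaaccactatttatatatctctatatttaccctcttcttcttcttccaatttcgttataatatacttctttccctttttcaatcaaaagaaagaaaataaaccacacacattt
PAP14, chr2:19266397-19266696, minus strand: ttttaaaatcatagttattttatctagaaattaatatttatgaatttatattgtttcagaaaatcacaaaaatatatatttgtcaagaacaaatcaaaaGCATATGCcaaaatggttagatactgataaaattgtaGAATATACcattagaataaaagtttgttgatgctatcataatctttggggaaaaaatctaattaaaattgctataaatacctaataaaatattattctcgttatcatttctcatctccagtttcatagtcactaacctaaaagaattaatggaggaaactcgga
SRG3, chr3:349961-350260, minus strand: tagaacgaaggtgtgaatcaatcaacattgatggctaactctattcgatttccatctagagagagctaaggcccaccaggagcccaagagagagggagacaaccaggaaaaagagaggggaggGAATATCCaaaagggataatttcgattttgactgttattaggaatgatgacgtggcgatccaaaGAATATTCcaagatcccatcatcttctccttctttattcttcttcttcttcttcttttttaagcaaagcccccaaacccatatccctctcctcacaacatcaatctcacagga
MGD2, chr5:6896326-6896625, plus strand: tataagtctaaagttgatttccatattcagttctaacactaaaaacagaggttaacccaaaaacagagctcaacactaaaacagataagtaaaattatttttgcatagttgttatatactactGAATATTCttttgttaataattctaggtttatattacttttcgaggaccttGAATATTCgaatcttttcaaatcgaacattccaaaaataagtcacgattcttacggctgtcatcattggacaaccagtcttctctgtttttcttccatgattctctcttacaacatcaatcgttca
In the next 2, of cell division genes, capitals mark AACGG, the core of the mitosis-specific activator (MSA) element bound by three-repeat MYB factors, read on both strands.
HIK, chr1:6324173-6324472, minus strand: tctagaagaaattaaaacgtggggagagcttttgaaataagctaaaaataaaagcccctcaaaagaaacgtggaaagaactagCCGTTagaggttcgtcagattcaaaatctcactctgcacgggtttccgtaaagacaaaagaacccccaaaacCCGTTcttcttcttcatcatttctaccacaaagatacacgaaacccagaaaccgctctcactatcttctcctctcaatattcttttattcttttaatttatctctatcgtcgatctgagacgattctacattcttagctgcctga
TOPII, chr3:8624500-8624799, plus strand: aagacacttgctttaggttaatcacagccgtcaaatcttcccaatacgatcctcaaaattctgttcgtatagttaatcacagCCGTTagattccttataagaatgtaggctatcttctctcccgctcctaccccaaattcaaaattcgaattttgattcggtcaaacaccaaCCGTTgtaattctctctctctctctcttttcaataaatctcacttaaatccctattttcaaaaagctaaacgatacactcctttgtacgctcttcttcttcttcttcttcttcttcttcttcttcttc

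The members fell into 10 roles, beside 50 with none assigned, and the first is the response to phosphate starvation. Plants short of phosphate release it with acid phosphatases, replace phospholipids of their membranes by galactolipids, and signal the shortage through PHR1 and the SPX proteins that restrain it. Of the members, 7 belong to this response, and all 7 were mock-side. Their median difference between cdk8 and WT was -1.86 after mock and 0.07 under ABA. For the difference of ABA responses 2 of the 7 were called higher, SRG3 and MGD2, where 2.37% of all genes were. No cdk8 mock library of these 7 genes reached the lowest WT mock library, as for 91 of all 120 members and 19.1% of all genes tested. The rule used these values.

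PAP14, a purple acid phosphatase, had the largest b - a of all members. It had 0.0365, 0 and 0.288 CPM in cdk8 with ABA and 1.32, 1.04 and 1.01 CPM in cdk8 mock, against 0.108, 0 and 0.0517 CPM in WT with ABA and 15.4, 2.36 and 6.67 CPM in WT mock. Both genotypes were thus near 0 with ABA, and the genotypes differed before it. The WT mock mean was 7.25-fold the cdk8 mock mean, b - a was 2.18 ± 0.68 (SE from the 3 libraries of each group), and leaving out WT mock replicate 1 gave 1.45. The difference of ABA responses was not called for PAP14. MGDC, also called MGD3, makes the galactolipid monogalactosyldiacylglycerol. It had 0.474, 0.521 and 0.206 CPM in cdk8 with ABA and 3.28, 3.07 and 3.71 CPM in cdk8 mock, against 0.65, 0.735 and 0.621 CPM in WT with ABA and 30.4, 13.3 and 18 CPM in WT mock. The fall with ABA was 8.38-fold in cdk8 and 30.7-fold in WT. MGD2, the second enzyme of this type, had 5.84, 4.98 and 6.46 CPM in cdk8 with ABA and 8.25, 7.57 and 10.7 CPM in cdk8 mock, against 4.12, 4.24 and 3.31 CPM in WT with ABA and 21.3, 15.4 and 16.4 CPM in WT mock.

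SRG3 encodes a glycerophosphodiester phosphodiesterase that breaks down the head groups of phospholipids. It had 11.9, 9.37 and 10.7 CPM in cdk8 with ABA and 21.6, 20.5 and 22.6 CPM in cdk8 mock, against 9.76, 9.67 and 7.86 CPM in WT with ABA and 73.0, 40.4 and 48.6 CPM in WT mock. It overlaps the counted gene AT3G02030, and without strand in the counting its value is uncertain. PEPC1, a phosphatase of phosphocholine and phosphoethanolamine, had 2.86, 2.41 and 3.28 CPM in cdk8 mock against 22.2, 5.33 and 11.8 CPM in WT mock, and under 1 CPM in every ABA library. IPS1, the non-coding RNA that captures the phosphate microRNA miR399, had 1.11, 1.81 and 1.4 CPM in cdk8 mock against 13, 3.11 and 7.57 CPM in WT mock. Its ABA libraries overlapped, at 0.62, 0.93 and 2.39 CPM in cdk8 and 0.542, 2.77 and 1.91 CPM in WT. SPX3, one of the proteins that restrain PHR1, had 0.846, 0.384 and 1.06 CPM in cdk8 mock against 6.82, 2.31 and 4.16 CPM in WT mock.

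The WT mock libraries were far apart for these genes, with replicate 1 highest and replicate 2 lowest in all 7. Their summed level was 39.3, 36.8 and 43.8 CPM in cdk8 mock, against 182, 82.2 and 113 CPM in WT mock. With WT mock replicate 1 left out, 5 of the 7 still met the rule; PEPC1 then had b - a of 0.9984 and IPS1 had a b - a of 1.13 with a above its limit. A wider list of phosphate starvation genes, drawn up after the members were seen, had 27 genes tested. After mock, 19 were called lower in cdk8 and none higher, where 8% of all genes were called lower and 5.15% higher, with a median difference of -0.78. The list holds the 7 members, so its count is no independent evidence; leaving out 1 library at a time gave 13 to 20. Outside the members these included SPX1, the phosphate transporter PHT1;4, the phosphatase PAP17 and the sulfolipid enzyme SQD1. PAP17, PLDP2 and the ribonuclease RNS1 did not fall with ABA in WT: a was 1.58, 2.01 and 3.4. Under ABA, 1 gene of the list was called higher in cdk8, the transporter PHT1;1, and 4 lower, RNS1, PLDP2, NPC4 and AT5G03545. Of all genes tested, 10.6% were called higher and 13% lower. The promoters of SPX3, PAP14, SRG3 and MGD2 each held 2 matches to P1BS, and 4 of 7 phosphate promoters compare with 5.45% of the 21054 promoters of tested genes and 5.31% of those of the other 1187 repressed genes. P1BS was chosen as a motif after the members were seen, and a match of letters is no evidence of a bound site.

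**Figure D2:**
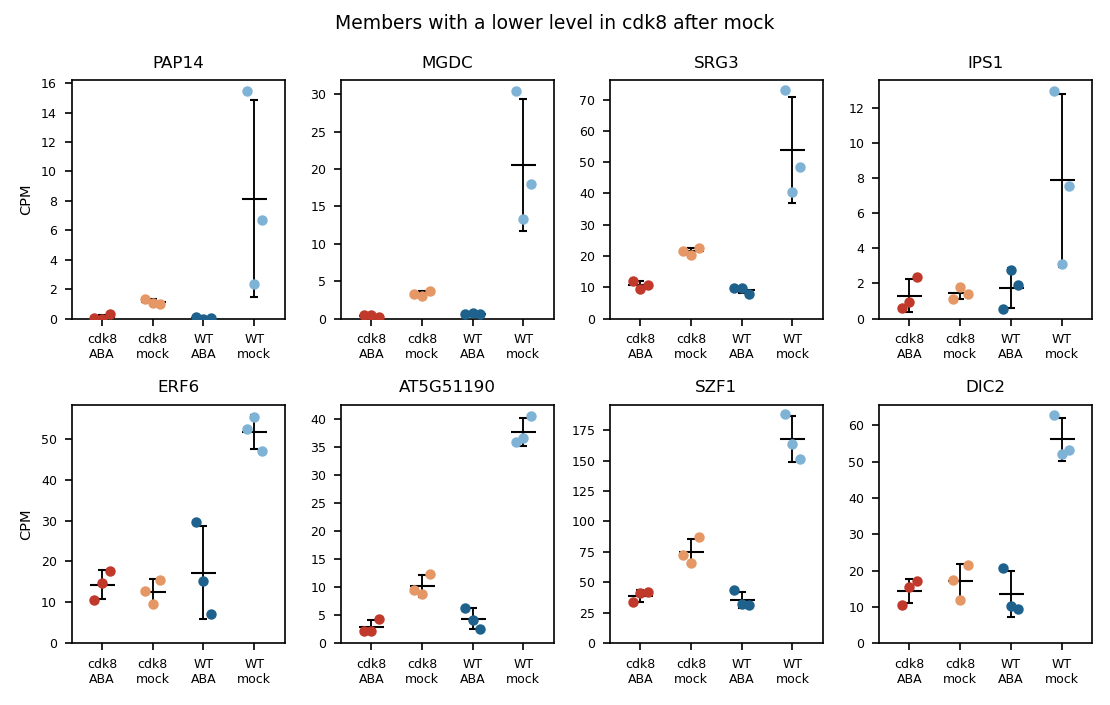
CPM of 8 mock-side members in each library, with the mean and SD of 3 libraries per group as a bar; each vertical axis starts at 0. In all 8 genes the 3 cdk8 mock libraries lie below the 3 WT mock libraries, while the ABA libraries of the genotypes overlap in all but MGDC; the 4 genes of the upper row are phosphate starvation genes and have their highest WT mock value in replicate 1.

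Transcription factors of rapid stress responses were the second mock-side group. ERF6, an ethylene response factor that acts in oxidative and osmotic stress, was the member with the highest b. It had 10.6, 14.7 and 17.7 CPM in cdk8 with ABA and 12.9, 9.49 and 15.5 CPM in cdk8 mock, against 29.6, 15.2 and 7.09 CPM in WT with ABA and 52.4, 55.4 and 47.1 CPM in WT mock. The ABA and mock libraries of cdk8 overlapped, and the WT mock mean was 4.09-fold the cdk8 mock mean. The difference of ABA responses was not called for ERF6. AT5G51190, another factor of the ERF family, had 2.15, 2.16 and 4.40 CPM in cdk8 with ABA and 9.52, 8.72 and 12.4 CPM in cdk8 mock, against 6.34, 4.07 and 2.64 CPM in WT with ABA and 35.9, 36.6 and 40.6 CPM in WT mock. SZF1, a zinc finger protein of salt stress, had 33.6, 41.5 and 41.7 CPM in cdk8 with ABA and 72.8, 65.9 and 87.0 CPM in cdk8 mock, against 43.4, 32.2 and 31.4 CPM in WT with ABA and 188, 164 and 151 CPM in WT mock.

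ORA47, a regulator of jasmonate synthesis, fell 5.61-fold with ABA in cdk8 and 19.3-fold in WT; its mock levels were 5.87, 5.43 and 4.91 CPM in cdk8 and 15.8, 12.1 and 14.2 CPM in WT. WRKY53, a regulator of leaf senescence and defence, had 4.81, 2.3 and 6.79 CPM in cdk8 mock against 13.4, 11 and 9.17 CPM in WT mock, and it overlaps the counted gene AT4G23800. For these 5 genes no cdk8 mock library reached the lowest WT mock library (so for 19.1% of all genes tested). Their median difference under ABA was 0.02, and the rule used all these values. Of 19 ERF genes tested from a list, 11 were called lower in cdk8 after mock and 12 under ABA, where 8% and 13% of all genes were, and none was called higher in either. For the difference of ABA responses 1 ERF gene was called higher and 1 lower, against 2.37% and 2.85% of all genes. Among 57 WRKY genes, 10 were called lower and 4 higher in cdk8 after mock (8% and 5.15% of all genes), and 2 were called higher and 1 lower for the difference.

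Light harvesting and chlorophyll genes differed mostly under ABA, in values that the rule used. All cdk8 ABA libraries lay above all WT ABA libraries for 5 of the 6, and for 26.6% of all genes tested. After mock, the difference between cdk8 and WT was 0.02 for CAB2, 0.05 for LHCB2.1 and 0.20 for LHCB2.2 on the log2(CPM + 1) scale. All cdk8 mock libraries of PORB, HEMA1 and GLK2 lay below those of WT, as for 19.1% of all genes tested. Light-harvesting complex proteins bind chlorophyll around photosystem II, and their genes are read in step with chlorophyll synthesis. CAB2, a gene of the LHCB1 group, had 2062, 1793 and 1773 CPM in cdk8 with ABA and 5622, 5253 and 5270 CPM in cdk8 mock, against 755, 713 and 715 CPM in WT with ABA and 4948, 5595 and 5411 CPM in WT mock. The mock groups overlapped and the ABA groups did not; the cdk8 mean with ABA was 2.58-fold the WT mean with ABA. LHCB2.1 had 789, 530 and 736 CPM in cdk8 with ABA and 3439, 3135 and 3303 CPM in cdk8 mock, against 287, 249 and 156 CPM in WT with ABA and 3224, 3188 and 3097 CPM in WT mock. LHCB2.2 had 610, 411 and 634 CPM in cdk8 with ABA against 226, 197 and 151 CPM in WT with ABA. These 3 genes belong to families of nearly identical copies, and how fragments were divided among the copies is uncertain.

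HEMA1, the glutamyl-tRNA reductase that starts chlorophyll synthesis, had 204, 148 and 176 CPM in cdk8 with ABA and 409, 530 and 433 CPM in cdk8 mock, against 118, 101 and 97.3 CPM in WT with ABA and 568, 577 and 573 CPM in WT mock. GLK2, a transcription factor of chloroplast development, had 39.8, 30.4 and 38.6 CPM in cdk8 with ABA and 200, 166 and 194 CPM in cdk8 mock, against 18.9, 25.2 and 22.9 CPM in WT with ABA and 229, 252 and 258 CPM in WT mock. PORB, which reduces protochlorophyllide in light, was the 1 mock-side gene of this group. It had 524, 318 and 478 CPM in cdk8 with ABA and 479, 551 and 458 CPM in cdk8 mock, against 384, 417 and 318 CPM in WT with ABA and 1059, 1109 and 1088 CPM in WT mock. In cdk8 its ABA and mock libraries overlapped, with a fall of 1.13-fold, against 2.91-fold in WT.

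The other photosynthesis genes were set beside them. On a list of 23 such genes, all tested, 23 were called lower with ABA in WT and 22 in cdk8 (32.8% and 30.4% of all genes). For a higher ABA response in cdk8, 4 were called, among them the 3 members, and 0 for a lower one (2.37% and 2.85% of all genes). The median a of the list was -1.57 and its median b -1.31. Under ABA, 6 of the list were called higher in cdk8 and 3 lower (10.6% and 13% of all genes). Beside these, the summed level of 12 shoot and leaf markers, which include CAB2 and LHCB2.2, was 13687 to 15614 CPM in cdk8 with ABA and 38160 to 41227 CPM in cdk8 mock, against 9495 to 11072 CPM in WT with ABA and 34046 to 36366 CPM in WT mock. The part of the marker difference in the LHCB values was not tested. The ABRE core ACGTG, the site of ABA-responsive bZIP factors, which also lies within the G-box CACGTG, was present on either strand in 5 of the 6 promoters of the group. It was in 30.8% of the promoters of all members, 29.6% of those of the other repressed genes and 28.9% of those of all genes tested. The full G-box was in 0 of the 6 promoters, against 9.36% of those of all genes tested. The I-box GATAAG, a motif added to the planned ones, was in 0 of the 6, against 15.5%. Both examples below carry the ABRE core once, in capitals, and show the genes of the antenna and of chlorophyll synthesis.
LHCB2.2, chr2:1800343-1800642, minus strand: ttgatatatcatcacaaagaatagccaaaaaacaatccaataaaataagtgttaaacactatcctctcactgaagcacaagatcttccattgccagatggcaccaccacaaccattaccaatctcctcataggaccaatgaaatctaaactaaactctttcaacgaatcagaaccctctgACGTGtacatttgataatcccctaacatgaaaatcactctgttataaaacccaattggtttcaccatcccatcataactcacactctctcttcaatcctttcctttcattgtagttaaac
HEMA1, chr1:21626151-21626450, minus strand: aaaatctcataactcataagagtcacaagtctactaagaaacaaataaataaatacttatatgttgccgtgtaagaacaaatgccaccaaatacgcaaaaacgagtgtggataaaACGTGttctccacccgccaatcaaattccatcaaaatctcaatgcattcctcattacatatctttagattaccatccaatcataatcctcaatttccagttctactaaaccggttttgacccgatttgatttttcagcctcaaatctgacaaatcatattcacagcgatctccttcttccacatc

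**Figure D3:**
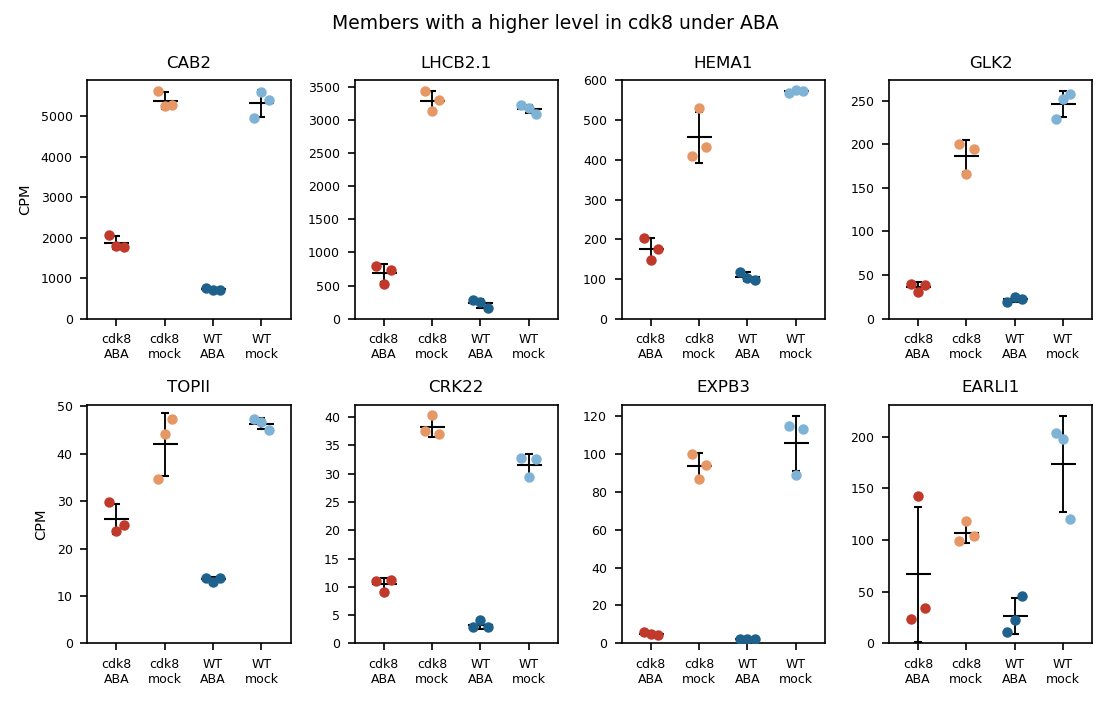
CPM of 8 ABA-side members in each library, with the mean and SD of 3 libraries per group as a bar; each vertical axis starts at 0. In 7 of the 8 genes the 3 cdk8 ABA libraries lie above the 3 WT ABA libraries; in EARLI1 they overlap, and its cdk8 mean with ABA rests on 1 library at 142 CPM.

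Genes of mitosis and cytokinesis formed a group with differences on both sides. TOPII, the topoisomerase that untangles chromosomes, had 29.8, 23.8 and 25.1 CPM in cdk8 with ABA and 34.6, 44.1 and 47.3 CPM in cdk8 mock, against 13.7, 13 and 13.8 CPM in WT with ABA and 47.4, 46.7 and 45 CPM in WT mock. HIK, the kinesin HINKEL of the forming cell plate, had 12.1, 12.6 and 9.55 CPM in cdk8 with ABA and 14.4, 17.7 and 21.2 CPM in cdk8 mock, against 8.62, 6 and 8.69 CPM in WT with ABA and 26.6, 24.4 and 25.8 CPM in WT mock. CYCA1;1, a mitotic A-type cyclin, fell 1.39-fold with ABA in cdk8 and 3.76-fold in WT, at 7.15, 5.54 and 4.2 CPM in cdk8 with ABA and 3.36, 3.06 and 4.45 CPM in WT with ABA. CSLD5, a cellulose synthase-like protein of the cell plate, had 23.7, 25.5 and 29.0 CPM in cdk8 mock against 57.0, 49.2 and 51.5 CPM in WT mock. The kinesins AT2G22610 and AT4G26660 and the TPX2-type protein AT3G01710 had b - a of 1.00, 1.09 and 1.21; AT2G22610 and AT3G01710 overlap another counted gene. Summed over the 7 genes, the level was 71.6 to 94.4 CPM in cdk8 with ABA and 109 to 145 CPM in cdk8 mock, against 46.8 to 62.8 CPM in WT with ABA and 174 to 189 CPM in WT mock. The sums did not overlap between the genotypes in either treatment, but the rule used these values. Gene by gene, all cdk8 mock libraries lay below WT for 4 of the 7 (19.1% of all genes tested). All cdk8 ABA libraries lay above WT for 5 of the 7 (26.6% of all genes tested).

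Several of these genes lay close to the limits of the rule. CYC1BAT, a B-type cyclin, missed it with a at -1.496 and b - a at 1.29, and AT2G22610 was just inside with a b - a of 1.00. Without WT with ABA replicate 2, 3 of the 7 met the rule. A list of 26 mitotic genes, all tested, held 2 members, HIK and CYCA1;1. In cdk8, 11 of the 26 were called lower with ABA and 4 higher (CYCB2;3, CDKB2;2, AUR2 and CDKB1;1), where 30.4% and 30.6% of all genes were. In WT, 25 were called lower and 1 higher (CYCB2;3), where 32.8% and 31.9% of all genes were. For the difference, 22 were called for a higher response in cdk8 and 1 for a lower one, against 2.37% and 2.85% of all genes. The median a of the list was -1.07 and the median b -0.17. After mock, 15 were called lower in cdk8 and 1 higher (8% and 5.15% of all genes). Under ABA, 11 were called higher and 1 lower (10.6% and 13% of all genes). LGO, an inhibitor of the mitotic kinases, was the gene with the other sign: a was -1.05 and b -2.07. The count of 22 fell to 6 at an adjusted p under 0.01. With 1 library left out it was 11 without WT mock replicate 3, cdk8 with ABA replicate 1 or cdk8 mock replicate 1, 12 without cdk8 mock replicate 2, 13 without WT mock replicate 1, 14 without WT with ABA replicate 2, and 15 to 22 without one of the other 6. The 23 genes of a DNA replication and histone list had medians of -0.70 for a and -0.66 for b, and 1 was called for a higher response. The summed level of 8 markers of dividing cells was 55.1 to 65.2 CPM in cdk8 with ABA and 70.5 to 80.4 CPM in cdk8 mock, against 37.4 to 52.9 CPM in WT with ABA and 101 to 104 CPM in WT mock; its part in the members' values was not tested. All 7 promoters of the cell division members held AACGG, as the 2 shown above do. It was in 43.6% of ABA-side promoters, 24.7% of mock-side promoters, 19.9% of those of the other repressed genes and 27.2% of those of all genes tested.

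**Figure D4:**
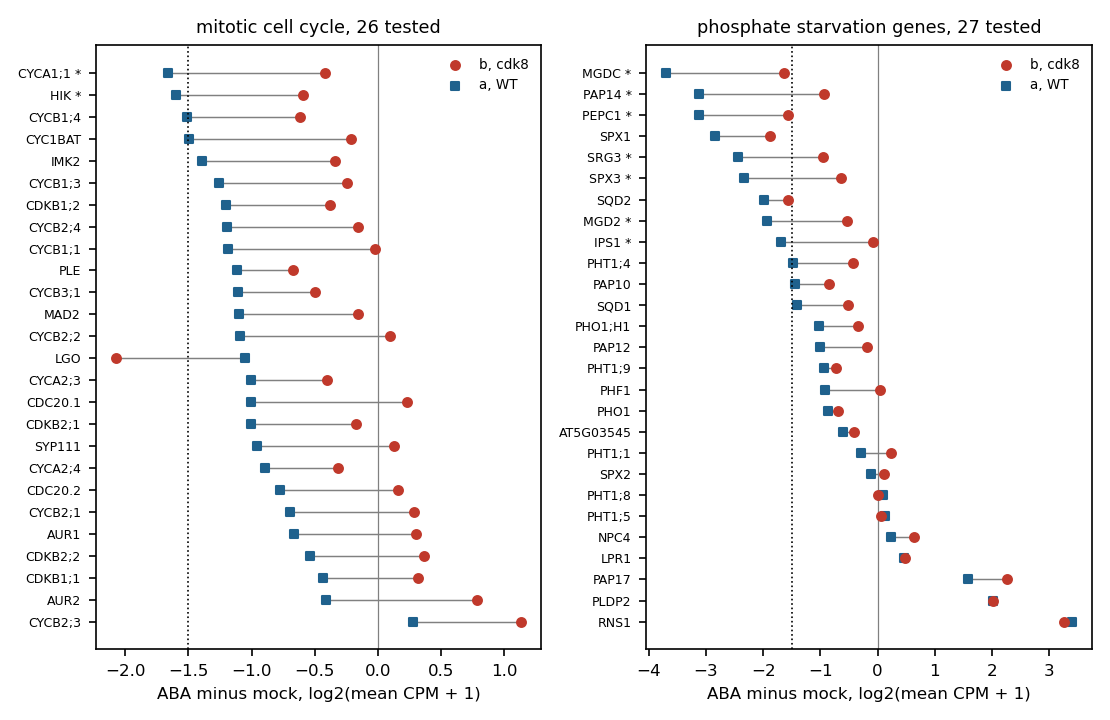
ABA response of every tested gene of 2 lists, ABA minus mock in log2(mean CPM + 1), with cdk8 (b) as circles and WT (a) as squares joined by a line; asterisks mark members and the dotted line is the limit of -1.5 for a. In the mitotic list the cdk8 circle lies right of the WT square for every gene but LGO, while the phosphate list, drawn up after the members were seen, spreads from genes that fall to genes that rise with ABA.

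Kinases of the receptor type, which sense signals at the cell surface, gave 6 members without a common side. CRK22, a cysteine-rich receptor-like kinase, had 11, 9 and 11.2 CPM in cdk8 with ABA and 37.6, 40.3 and 37.1 CPM in cdk8 mock, against 2.82, 4.07 and 2.95 CPM in WT with ABA and 32.8, 29.4 and 32.7 CPM in WT mock. It was higher in cdk8 in every library of both treatments. FRK1, a kinase gene induced by bacterial flagellin, had 2.41, 8.22 and 1.52 CPM in cdk8 with ABA and 4.28, 6.09 and 10.9 CPM in cdk8 mock, against 0.705, 2.43 and 3.57 CPM in WT with ABA and 21.7, 14.2 and 16.1 CPM in WT mock. The ABA groups overlapped, and without cdk8 ABA replicate 2 its b - a was 1.05 in place of 1.82. The difference of ABA responses was not called for FRK1. CRK30 had no count in any of the 6 ABA libraries, and 3.65, 3.18 and 5.54 CPM in cdk8 mock against 14.2, 17.1 and 9.01 CPM in WT mock; 3 counts would have been 0.109 to 0.17 CPM, depending on the library. AT1G66920, AT1G51850 and AT4G18250 had b - a between 1.03 and 1.15, and leaving out cdk8 ABA replicate 2 gave 0.46 for AT1G66920 and 0.67 for AT1G51850. Without that library 3 of the 6 kinases met the rule, and 5 of the 9 transporters described below. From a list of cysteine-rich receptor kinases, 34 were tested and 2 were called for a higher response in cdk8 and 1 for a lower one. The 29 salicylic acid and immune genes tested gave none higher and 4 lower. Over all genes tested the shares were 2.37% higher and 2.85% lower. The W-box core TTGAC, which lies within the full W-box TTGACC, was present in all 6 kinase promoters, in 50.0% of those of all members and 49.7% of those of all genes tested.

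Small secreted lipid transfer proteins gave 3 members, of which 2 are neighbours. EARLI1 and AZI1, which acts in the spread of induced resistance, lie next to each other on chromosome 4 within 7401109 to 7406937, both on the minus strand. EARLI1 had 24.0, 142 and 34.3 CPM in cdk8 with ABA and 98.9, 118 and 104 CPM in cdk8 mock, against 10.9, 22.3 and 45.4 CPM in WT with ABA and 203, 197 and 120 CPM in WT mock. AZI1 had 9.41, 32.1 and 15.4 CPM in cdk8 with ABA and 20.8, 31.0 and 25.6 CPM in cdk8 mock, against 20.11, 37.2 and 64.6 CPM in WT with ABA and 206, 181 and 89.6 CPM in WT mock. For both, cdk8 ABA replicate 2 was the highest of its group; without it b - a was 0.84 for EARLI1 and 0.94 for AZI1, under the limit of the rule. LTP6 had 19.9, 19.6 and 24.2 CPM in cdk8 mock against 46.5, 49.2 and 55.2 CPM in WT mock, and met the rule in 6 of the 12 settings with 1 library left out. For the difference of ABA responses, 0 of the 3 were called.

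Enzymes of specialised metabolism were the largest role, with 16 members, 11 of them mock-side. UGT72E1, which adds glucose to lignin precursors, had 8.46, 11.5 and 9.14 CPM in cdk8 with ABA and 99.1, 86.6 and 103 CPM in cdk8 mock, against 5.04, 6.05 and 5.85 CPM in WT with ABA and 148, 145 and 124 CPM in WT mock. Its fall was strong in both genotypes, 9.93-fold in cdk8 and 24.6-fold in WT. ST4B, a sulfotransferase, had 10.8, 10.4 and 14.4 CPM in cdk8 with ABA and 54.9, 55.0 and 47.9 CPM in cdk8 mock, against 5.15, 5.77 and 5.38 CPM in WT with ABA and 92.1, 60.3 and 102 CPM in WT mock. AT3G44970, a cytochrome P450, was above WT in cdk8 in both treatments, at 7.26, 9.89 and 7.74 CPM against 1.03, 1.36 and 1.97 CPM with ABA, and at 30.3, 28.0 and 31.4 CPM against 21.9, 20.7 and 18.5 CPM after mock. GSTF14, a glutathione transferase, had 2.44, 1.90 and 2.55 CPM in cdk8 with ABA and 8.46, 8.5 and 11.2 CPM in cdk8 mock, against 3.20, 2.15 and 1.86 CPM in WT with ABA and 24.5, 27.7 and 26.3 CPM in WT mock.

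CYP705A5, a cytochrome P450 of triterpene (thalianol) synthesis in roots, and the adjacent acyltransferase gene AT5G47980 lie together on chromosome 5 within 19428888 to 19436689, both on the plus strand. CYP705A5 had 58.3, 120 and 52.7 CPM in cdk8 with ABA and 241, 274 and 189 CPM in cdk8 mock, against 54.3, 35.3 and 54.7 CPM in WT with ABA and 347, 213 and 391 CPM in WT mock; the genotypes overlapped after mock, and b - a fell to 0.64 without cdk8 ABA replicate 2. GSTU20, a glutathione transferase, overlapped between the genotypes under ABA and not after mock, at 118, 141 and 76.7 CPM in cdk8 with ABA and 284, 273 and 337 CPM in cdk8 mock, against 34.6, 58.3 and 126 CPM in WT with ABA and 348, 483 and 342 CPM in WT mock. It met the rule in 5 of the 12 settings with 1 library left out, with b - a from 0.67 to 1.64. The P450s CYP76G1 and CYP712A1 were mock-side, with mock means 2.96-fold and 2.46-fold higher in WT; CYP712A1 overlaps another counted gene. AACT1, an anthocyanin acyltransferase, had no count in cdk8 with ABA and 0.106, 0.110 and 0 CPM in cdk8 mock, against 1.41, 2.38 and 1.55 CPM in WT with ABA and 10.3, 6.14 and 4.43 CPM in WT mock. It meets the rule on the log2(CPM + 1) scale, where 1 CPM is added; fitted on counts, its difference of responses had the other sign, at -1.76 ± 1.37 (SE). Of 170 cytochrome P450 genes tested, 4 were called for a higher and 15 for a lower response in cdk8. Of 45 glutathione transferases, 1 was called higher and 0 lower. Over all genes tested the shares were 2.37% higher and 2.85% lower.

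Transporters gave 9 members. DIC2, a dicarboxylate carrier of mitochondria, had 10.7, 15.6 and 17.1 CPM in cdk8 with ABA and 17.5, 12 and 21.6 CPM in cdk8 mock, against 20.7, 10.4 and 9.47 CPM in WT with ABA and 62.8, 52.2 and 53.3 CPM in WT mock. HAK5, the high-affinity potassium transporter of roots, had 11.9, 11.9 and 7.57 CPM in cdk8 with ABA and 27, 22.9 and 26.6 CPM in cdk8 mock, against 6.18, 5.26 and 4.55 CPM in WT with ABA and 34, 35.5 and 35.8 CPM in WT mock. NIP6;1, a boric acid channel, had 3.61, 3.24 and 1.77 CPM in cdk8 with ABA against 1.19, 1.64 and 0.931 CPM in WT with ABA, and it overlaps another counted gene. UMAMIT36 was at 0.0823 CPM or lower in every ABA library of both genotypes, and had 4.60, 4.11 and 5.83 CPM in cdk8 mock against 14.9, 12.4 and 12.9 CPM in WT mock. AT2G39210, of the major facilitator superfamily, had the largest excess in cdk8 over WT under ABA on the log2(CPM + 1) scale, with 42.5, 90.4 and 31.3 CPM in cdk8 with ABA and 72.1, 65.7 and 86.8 CPM in cdk8 mock, against 8.46, 10.6 and 17.3 CPM in WT with ABA and 41.5, 35.4 and 33.9 CPM in WT mock. PMT6, a polyol and sugar transporter, stood just inside the limit with b - a of 1.00; AT3G15550 was just outside at 0.998.

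Cell wall genes, 6 members, were divided evenly between the sides. EXPB3, a beta-expansin that loosens the wall, had the lowest a of all members. It had 6.13, 4.83 and 4.36 CPM in cdk8 with ABA and 100, 86.7 and 94.1 CPM in cdk8 mock, against 2.33, 2.32 and 2.48 CPM in WT with ABA and 115, 89.0 and 113 CPM in WT mock, a fall of 18.3-fold in cdk8 and 44.4-fold in WT. GH9B13, a cellulase-type glycosyl hydrolase, had 7.95, 7.74 and 7.90 CPM in cdk8 with ABA and 34.6, 30.1 and 32.2 CPM in cdk8 mock, against 6.56, 7.69 and 9.05 CPM in WT with ABA and 107, 82.6 and 77.7 CPM in WT mock. AGP22, an arabinogalactan protein, had 25.4, 24.4 and 25.7 CPM in cdk8 with ABA and 33.9, 27.6 and 35.9 CPM in cdk8 mock, against 12.6, 10.5 and 8.95 CPM in WT with ABA and 32.7, 31.9 and 31.6 CPM in WT mock. XTH17, a xyloglucan-modifying enzyme, had 16.9, 13.7 and 17.2 CPM in cdk8 mock against 26.9, 29.6 and 32.7 CPM in WT mock. Of 49 expansin and xyloglucan hydrolase genes tested, 5 were called for a higher and 1 for a lower response in cdk8, against 2.37% and 2.85% of all genes.

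Regulators of hormones and the clock were 5, and 0 of them met the rule with each of the 12 libraries left out in turn. The lowest b - a was then 0.98 for PYL6, 0.91 for PRR9 and 0.96 for both IAA19 and CIPK20. For MYB56 it was 1.06. PYL6, an ABA receptor, was nearly silenced by ABA in both genotypes, at 0.182, 0.335 and 0.288 CPM in cdk8 and 0.488, 0.339 and 0.155 CPM in WT, and had 4.23, 2.25 and 6.12 CPM in cdk8 mock against 11.6, 15.5 and 8.11 CPM in WT mock. PRR9, a morning gene of the circadian clock, had 18.1, 13.9 and 14.8 CPM in cdk8 with ABA and 31.7, 36.2 and 31.5 CPM in cdk8 mock, against 10.5, 7.30 and 5.28 CPM in WT with ABA and 37.6, 32.5 and 41.4 CPM in WT mock. IAA19, an auxin response repressor, had 5.87, 6.97 and 7.76 CPM in cdk8 mock against 12.8, 13.1 and 12.1 CPM in WT mock. The protein kinase CIPK20 was mock-side and the factor MYB56 ABA-side, with b - a of 1.04 and 1.18.

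Another 50 members had no role assigned here, 39 of them mock-side. BGLU44, a beta-glucosidase, was the most abundant of these after mock in WT, at 117, 120 and 114 CPM in cdk8 with ABA and 173, 181 and 180 CPM in cdk8 mock, against 123, 115 and 181 CPM in WT with ABA and 552, 522 and 433 CPM in WT mock. PP2-A5, a lectin-type protein of the phloem protein family, had 0.255, 2.19 and 0.494 CPM in cdk8 with ABA and 0.846, 0.329 and 1.73 CPM in cdk8 mock, against 1.3, 0.396 and 2.79 CPM in WT with ABA and 8.62, 8.68 and 7.84 CPM in WT mock. AT4G01390, a gene of the TRAF-like family, was the member farthest below WT, in both treatments. It had 0.292, 0.186 and 0.247 CPM in cdk8 with ABA and 1.00, 0.658 and 1.45 CPM in cdk8 mock, against 7.32, 5.88 and 7.04 CPM in WT with ABA and 50.7, 39.6 and 53.9 CPM in WT mock; WT mock was 46.4-fold the level of cdk8 mock, while the falls with ABA were 4.29-fold in cdk8 and 7.12-fold in WT. MRU1 and the gene AT5G35480 beside it lie on opposite strands of chromosome 5 within 13689204 to 13690548. After mock, MRU1 had 1.16, 0.768 and 1.64 CPM in cdk8 against 8.86, 11.9 and 6.29 CPM in WT, and AT5G35480 had 0.899, 0.823 and 1.16 CPM in cdk8 against 3.02, 7.17 and 4.64 CPM in WT. They were 1 of 3 pairs of members with no other counted gene between them, beside AZI1 with EARLI1 and AT5G47980 with CYP705A5.

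Position, length and promoter letters were not used by the rule. The members were spread over the chromosomes, with 36, 22, 18, 25 and 19 genes on chromosomes 1 to 5. Their median exon length was 1265 bases, against 1488 in the other repressed genes and 1525 in all genes tested, and 25.0% of the members had 1 listed exon, against 22.6% and 18%. The TATA element TATAAA was found in 71.6% of mock-side promoters and 46.2% of ABA-side promoters, against 53.5% of those of the other repressed genes and 49.6% of those of all genes tested. The site II element GGCCCA, common in promoters of ribosomal and proliferation genes, was in 5% of the members' promoters, against 9.18% and 17.7%. The full W-box was in 20% of the members' promoters and 14.2% of those of all genes tested. In the same order, the G-box was in 10.8% and 9.36%, and the RY element CATGCA in 11.7% and 7.71%. The evening element AAAATATCT was in 5.83% and 2.71%, the telo box AAACCCTA in 5% and 8.32%, and the I-box in 18.3% and 15.5%. The GCC box GCCGCC was in 1.67% and 3.8%. The E2F site TTTCCCGC was in 0.833% and 0.94%, and TTTGGCGC in 0% and 0.551%. Over the whole set from which the members were drawn, of the 1307 genes with a at -1.5 or lower, 996 (76.2%) had b above a, and the median b - a was 0.31, where the median over all genes tested was 0.10.

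**Figure D5:**
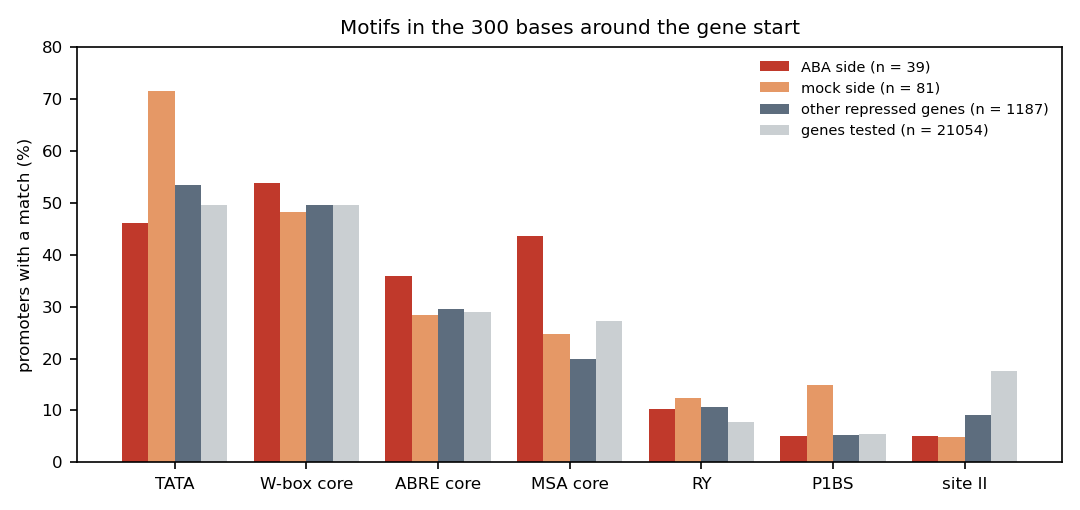
Share of promoters (250 bases before to 50 after the gene start) with at least 1 match on either strand, in percent, for ABA-side members, mock-side members, other repressed genes and all genes tested. TATA and P1BS are more frequent in mock-side promoters (71.6% and 14.8%) and the MSA core in ABA-side promoters (43.6%) than in the other repressed genes (53.5%, 5.31% and 19.9%); no test was made.

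Single libraries weighed on some members. In cdk8 mock, replicate 3 was the highest of its group in 72 of the 120 members, and in WT with ABA replicate 3 was the highest in 54. Of the members, 60 met the rule with each of the 12 libraries left out in turn, 47 of them mock-side and 13 ABA-side. Without WT with ABA replicate 3 the rule gave 160 genes, 107 of them members, and without WT mock replicate 1 it gave 101, of which 100 were members. Summed seed and embryo markers (8 genes, 6 tested) were 105, 31.9 and 69.0 CPM in cdk8 with ABA and 3.23, 11.9 and 4.43 CPM in cdk8 mock, against 30.4, 32.8 and 24.7 CPM in WT with ABA and 1.46, 0.708 and 13.4 CPM in WT mock, and their part in the members' values was not tested.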

How the data were processed

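The authors deposited a table of raw counts of read pairs per gene, made by featureCounts version 1.4.6 with Ensembl's TAIR10 genes; per the file headers, the command set no option for strand or for reads with several positions. The submitters' processing notes also name FastQC and TopHat2. Total RNA was taken with Trizol, per the labels' protocols. The replicate numbers used here are those of the column headers; the labels do not say that a number marks a shared planting or day. In the sample titles, cdk8 with ABA replicate 3 is library 19 and the other libraries are 1 to 11.

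The members and lists were chosen with earlier results of these data known. CPM used column totals, and limits were set on log2(mean CPM + 1). Counts were tested with edgeR 4.0.16 (TMM scaling, filterByExpr, 4 group means, quasi-likelihood F test, Benjamini-Hochberg adjusted p under 0.05 over 21151 genes; R 4.3.3), with DESeq2 1.42.0 and limma 3.58.1 (voom) as alternatives. The edgeR test was also tried on simulated counts, whose means and spread were taken from these data. Totals of 17675785 to 27415053 make 3 counts equal to 0.109 to 0.17 CPM. SE of b - a combine the spread of 3 libraries in each group. Genes were named by a rule. It took the 12 members with the largest b - a among those with a symbol and at least 5 CPM in WT mock. It added the 8 highest in WT mock, up to 4 of each list, and those next to each limit. Among members with b above 0 it took up to 4, the highest in cdk8 with ABA, which gave only ERF6 and PP2-A5. Further members were chosen after their values were seen. In the file's coordinates 97.72% of 120956 introns began with GT and ended with AG in the RefSeq TAIR10.1 sequence, and all 32835 nuclear genes matched by locus lay on the same chromosome. Promoters of 21054 tested genes were searched. Of 33 lists, 14 held a member and 19 none. Python 3.11.15, pandas 2.3.3, numpy 2.4.6 and matplotlib 3.10.9 were used.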

Additional observations from a re-analysis of the deposited data

Results flagged for a closer look

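For 37 named members the ABA response differed between cdk8 and WT by edgeR's test of the difference itself, at an adjusted p under 0.05. The values below are the fitted log2 response to ABA in cdk8 minus that in WT, with their SE. The same contrast chose the members, so the values are a description and support nothing further. The test called 7 of 7 cell division, 6 of 6 light harvesting and chlorophyll and 5 of 6 cell wall genes. It called 4 of 5 hormone and clock regulators, 7 of 9 transporters and 8 of 16 specialised metabolism enzymes. It called 2 of 7 phosphate starvation genes, 2 of 5 stress factors, 1 of 6 kinases and 0 of 3 lipid transfer genes. With no role assigned, 27 of 50 were called, and 2.37% of all genes tested were.

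In the group phosphate starvation the difference was 1.45 ± 0.26 for SRG3 and 1.46 ± 0.24 for MGD2. In the group stress transcription factors the difference was 1.68 ± 0.34 for ORA47 and 1.18 ± 0.20 for SZF1. In the group light harvesting and chlorophyll the difference was 1.24 ± 0.15 for CAB2, 1.41 ± 0.28 for LHCB2.1, 1.22 ± 0.24 for LHCB2.2 and 1.26 ± 0.24 for PORB. It was 0.96 ± 0.19 for HEMA1 and 1.00 ± 0.18 for GLK2. In the group cell division the difference was 0.98 ± 0.22 for HIK, 1.33 ± 0.27 for CYCA1;1, 1.00 ± 0.16 for TOPII and 1.05 ± 0.23 for CSLD5. It was 1.03 ± 0.22 for AT2G22610, 1.13 ± 0.23 for AT4G26660 and 1.36 ± 0.28 for AT3G01710. In the group specialised metabolism enzymes the difference was 1.7 ± 0.25 for ST4B, 1.35 ± 0.26 for CYP712A1, 1.31 ± 0.27 for GSTF14 and 1.21 ± 0.17 for UGT72E1. It was 1.85 ± 0.23 for AT3G44970 and 2.4 ± 0.57 for AT2G36690. In the group transporters the difference was 1.7 ± 0.38 for DIC2, 1.33 ± 0.23 for HAK5, 1.58 ± 0.35 for NIP6;1 and 0.92 ± 0.22 for PMT6. In the group cell wall the difference was 1.17 ± 0.20 for EXPB3, 1.12 ± 0.17 for AGP22 and 1.38 ± 0.18 for GH9B13. In the group hormone and clock regulators the difference was 1.22 ± 0.25 for IAA19, 1.08 ± 0.27 for PRR9, 0.96 ± 0.16 for CIPK20 and 1.65 ± 0.31 for MYB56. In the group kinases of the receptor type the difference was 1.29 ± 0.19 for CRK22. Among members with no role assigned it was 1.14 ± 0.20 for BGLU44 and 3.71 ± 0.69 for AT5G35480.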

How the results depend on the processing

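The column headers number the libraries 1 to 3 in each group, and the same numbers did not pair them: deviations from the group means correlated above 0.1 in 2 of 18 same-numbered pairs, and of 12 libraries 0 correlated best with their own number. Pairs with different numbers ranged from -0.188 to 0.399, with a median of 0.034. The highest was cdk8 with ABA replicate 2 and WT with ABA replicate 3, and what they share was not tested. With the number as a replicate block, an alternative added after the data were seen, 64 members were called for the difference of ABA responses, 99 lower with ABA in cdk8, 119 in WT, 34 higher in cdk8 under ABA and 73 lower after mock; the mitotic list had 14 calls and the phosphate list 17. Over all genes the block moved the calls for the difference to 302 higher and 348 lower, against 501 and 602 without it. The member count of 120, with 81 mock-side, became 75 with 53 mock-side when 2 CPM were added in place of 1, 25 with 22 for b - a of at least 1.5, and 72 with 46 for a of -2 or lower. With TMM-scaled CPM it was 92, all of them members, and with 0.5 CPM added it was 180. With 1 library left out it lay between 101 and 160, and the mock-side count between 69 and 100. Without both WT with ABA replicate 3 and cdk8 with ABA replicate 2 the rule gave 139 genes, 100 of them members. Members called for the difference of ABA responses were 69, 32 at an adjusted p under 0.01, 80 with DESeq2, 67 with limma-voom, and 54 to 76 with 1 library left out. The mitotic list's 22 calls became 6 at an adjusted p under 0.01 and lay between 11 and 22 with 1 library left out. Why these counts moved was not tested. For the 35 members named by the rule, b - a ranged from 0.59 to 2.64 over the settings of the rule, and none changed sign. None moved by more than the SD of single libraries combined over the 4 groups. That limit is wide, and leaving out 1 library can hardly exceed it, so nothing is concluded from it. Of these 35, 18 met the rule with each of the 12 libraries left out in turn. The values of b - a were not recomputed for DESeq2, limma-voom or the replicate block. Outside these 35, SAG12 had a b - a of -0.24 without WT mock replicate 3. Of the 119 tested members, 2 had a fitted difference at or under 0, AACT1 among them. Members low in both ABA groups rest on few counts, and 20 of the 24 under 1 CPM there were not called for the difference.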
